A study of Homo sapiens with 9 samples.

Results

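The zinc finger genes described here are the protein-coding genes of chromosomes 1 to 11 whose symbols start with ZNF. They were taken from the rows of a nascent transcription table by matching each Ensembl identifier to its GENCODE symbol and GRCh38 position. The rule gave 167 genes of the 58336 rows. A further 249 ZNF genes lie on chromosome 19 and 100 on the remaining chromosomes. The table comes from precision run-on sequencing (PRO-seq), in which engaged RNA polymerases of permeabilized cells extend their RNA by a labelled base and are mapped from it, in MEL624, a human melanoma cell line. The 3 groups were knockout clone 1 (PCIF1 KO1), knockout clone 2 (PCIF1 KO2) and control cells, which are wild type and carry a random guide RNA, with 3 libraries per group. Each knockout is 1 clone, so a difference between a clone and control cannot be told apart from a difference between clones of the line. PCIF1 encodes the methyltransferase that acts on an adenosine next to the mRNA cap.

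Zinc finger genes of this kind mostly encode DNA-binding proteins in which each finger folds around a zinc ion held by cysteines and histidines, and a row of fingers reads a DNA sequence. Many also carry a KRAB domain, which recruits the corepressor TRIM28 (KAP1) and through it the H3K9 methyltransferase SETDB1 and the HP1 proteins. KRAB zinc finger genes lie in clusters of close copies and are best known as repressors of transposable elements. ZNF genes without KRAB have varied roles as activators, repressors and RNA-binding proteins.

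The deposited table gives 1 mean per group and no value per library, so no replicate error, test or p-value can be given, and the depth behind a value is unknown. Each value is a normalized count per kb of gene length, and it was multiplied by that length to give the mean normalized count used below. Ratios were taken as log2 after adding 1 count, which understates the ratio of low genes, and no fold is given for a gene listed at 0 in a group. Of the 167 genes, 138 had a mean of at least 10 counts over the 3 groups and were compared. Another 18 were above 0 in some group but below that floor, and 11 were listed at 0 in every group. Those 11 were ZNF479, ZNF501, ZNF511-PRAP1, ZNF648, ZNF660, ZNF679, ZNF705B, ZNF705D, ZNF705G, ZNF732 and ZNF735. The ZNF705 genes are near-identical copies, so their reads may have been dropped or shared. Counts of at least 10 were found for 138 of the 167 in clone 1, 141 in clone 2 and 134 in control. In such bulk cells, fewer cells transcribing a gene and less transcription per cell cannot be told apart.

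The melanoma label was checked against 9 lineage markers, of which 3 had enough counts to compare. MITF, the melanocyte master regulator, had 142 counts in clone 1, 259 in clone 2 and 169 in control. PAX3, which acts upstream of MITF, had 287, 221 and 152 counts in the same order, and the pigment gene PMEL 21.3, 23.8 and 48.4. TYR was listed at 0 in all groups, SOX10 was listed at 0 in clone 1 and control with 6.08 counts in clone 2, and MLANA, DCT, S100B and TYRP1 stayed under the floor, so much of the differentiated melanocyte programme was not seen. Of the other markers, KRT18 had 713 counts in clone 1, 663 in clone 2 and 842 in control, 2 of 5 fibroblast markers and 1 of 5 epithelial markers were compared, and 0 of 6 blood and endothelial markers were. The fibroblast markers COL1A1 (27.8 counts in clone 1, 18.4 in clone 2 and 17.97 in control) and PDGFRA (21.3, 19.1 and 13.2) were compared, and LUM, under the floor, had 7.91, 7.10 and 0.692. All 3 were higher in each clone than in control, though COL1A1 in clone 2 was nearly equal to control. The remaining fibroblast markers were also under the floor. DCN had 0.514 counts in clone 1, 2.06 in clone 2 and 0 in control, and COL1A2 went the other way with 0.335, 0.335 and 1.45. The part of these markers in the ZNF values was not tested. PCIF1 itself had 270 counts in clone 1, 239 in clone 2 and 239 in control, which does not check the labels, since a small edit need not alter transcription of a gene.

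The promoters of 6 of these genes are shown because the results turn on them. ZNF141, ZNF454, ZNF879 and ZNF354C were higher in both clones, ZNF354B is the neighbour of the last 3 with nearly equal counts in all groups, and ZNF860 had the highest ratio that could be computed. Each stretch of 300 bases runs from 250 bases before to 50 bases from the annotated start on, is taken from RefSeq on GRCh38.p14, and has its CpG dinucleotides in capitals.
ZNF141, chr4:337564-337863, plus strand: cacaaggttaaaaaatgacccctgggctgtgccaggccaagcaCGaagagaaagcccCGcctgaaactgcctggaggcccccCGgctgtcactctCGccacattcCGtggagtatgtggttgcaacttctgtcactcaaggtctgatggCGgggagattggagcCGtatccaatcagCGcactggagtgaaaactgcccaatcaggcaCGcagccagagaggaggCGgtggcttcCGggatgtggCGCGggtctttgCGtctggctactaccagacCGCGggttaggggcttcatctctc
ZNF454, chr5:178940948-178941247, plus strand: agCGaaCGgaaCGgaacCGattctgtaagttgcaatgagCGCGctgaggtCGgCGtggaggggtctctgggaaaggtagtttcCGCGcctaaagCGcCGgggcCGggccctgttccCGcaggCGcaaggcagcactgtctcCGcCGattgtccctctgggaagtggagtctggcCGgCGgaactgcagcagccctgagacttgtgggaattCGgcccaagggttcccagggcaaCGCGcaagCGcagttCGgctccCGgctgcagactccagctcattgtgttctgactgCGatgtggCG
ZNF879, chr5:179023554-179023853, plus strand: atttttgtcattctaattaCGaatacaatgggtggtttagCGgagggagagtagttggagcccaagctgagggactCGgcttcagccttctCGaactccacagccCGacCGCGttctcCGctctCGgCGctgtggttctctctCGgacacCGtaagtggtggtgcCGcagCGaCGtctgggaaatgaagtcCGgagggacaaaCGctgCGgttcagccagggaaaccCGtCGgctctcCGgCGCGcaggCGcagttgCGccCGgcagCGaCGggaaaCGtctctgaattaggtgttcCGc
ZNF354C, chr5:179060123-179060422, plus strand: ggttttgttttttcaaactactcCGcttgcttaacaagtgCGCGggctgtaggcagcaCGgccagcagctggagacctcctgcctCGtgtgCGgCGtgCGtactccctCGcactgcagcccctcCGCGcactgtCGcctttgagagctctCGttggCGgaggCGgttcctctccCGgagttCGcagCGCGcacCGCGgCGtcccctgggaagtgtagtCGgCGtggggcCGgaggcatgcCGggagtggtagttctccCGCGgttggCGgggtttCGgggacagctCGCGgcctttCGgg
ZNF354B, chr5:178859703-178860002, plus strand: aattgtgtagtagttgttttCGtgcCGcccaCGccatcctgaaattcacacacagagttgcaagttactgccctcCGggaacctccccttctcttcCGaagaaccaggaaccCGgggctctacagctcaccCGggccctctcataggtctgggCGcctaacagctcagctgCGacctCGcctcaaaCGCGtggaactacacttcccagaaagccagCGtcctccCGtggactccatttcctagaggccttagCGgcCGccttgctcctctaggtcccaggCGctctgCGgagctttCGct
ZNF860, chr3:31981500-31981799, plus strand: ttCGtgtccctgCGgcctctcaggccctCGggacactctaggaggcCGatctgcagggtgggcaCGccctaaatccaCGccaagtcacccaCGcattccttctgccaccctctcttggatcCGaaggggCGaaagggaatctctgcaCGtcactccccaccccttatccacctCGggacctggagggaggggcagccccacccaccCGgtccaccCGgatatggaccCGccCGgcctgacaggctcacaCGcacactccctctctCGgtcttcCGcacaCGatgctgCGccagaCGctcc
These stretches hold 16 CpG dinucleotides in ZNF141, 27 in ZNF454, 30 in ZNF879, 33 in ZNF354C, 19 in ZNF354B and 21 in ZNF860. The median was 22 over the 131 ZNF genes with a promoter entry and 14 over all 35116 promoters of the table. Among compared genes it was 22 for the 110 ZNF genes and 26 for 9843 protein-coding genes without a ZNF symbol. Where a gene had several entries, a ZNF gene was given the entry nearest its GENCODE start. The other genes were given the entry of lowest coordinate, so these medians are not like for like. ZNF141 is the 1 of the 6 with the motif CCGGAAG, the core bound by ETS factors. The annotated first base, the base next to the cap, is G in ZNF141, ZNF454, ZNF879 and ZNF860 and A in ZNF354C and ZNF354B.

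Most of the ZNF genes had close to the same nascent transcription in the clones as in control. The median log2 ratio over the 138 compared genes was -0.0026 in clone 1 and 0.04 in clone 2, beside -0.0048 and -0.0039 over all 17149 compared genes. In each clone 117 of the 138 (84.8%) lay within 1.5-fold of control, beside 88.1% of all compared genes in clone 1 and 83.0% in clone 2. Both clones lay above control at 59 genes and both below it at 53, and the clones lay on opposite sides of it at 25. The clones share the control mean, so their values are given side by side and no relation between them is drawn.

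The genes past 2-fold were all on the higher side. In clone 1, 5 of the 138 were at least 2-fold above control, where the background over all compared genes was 2.27%, and 0 were at least 2-fold below it, where the background was 1.32%. In clone 2, 8 were at least 2-fold above (background 3.34%) and 0 below (background 1.9%). The members' shares of 3.62% in clone 1 and 5.8% in clone 2 are not far from the backgrounds. At least 2-fold above control in both clones were 4 genes, ZNF141, ZNF454, ZNF860 and ZNF879 (background 1.66%), and 0 were below it in both (background 0.589%). The floor favours the higher side, because ZNF141, ZNF718, ZNF454 and ZNF593OS had under 10 counts in control and passed through a clone. Among the 134 members with at least 10 counts in control, 3 were at least 2-fold higher in clone 1, 4 in clone 2 and 2 in both. The share over all genes was not taken with that floor, so these counts have no background beside them.

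**Figure D1:**
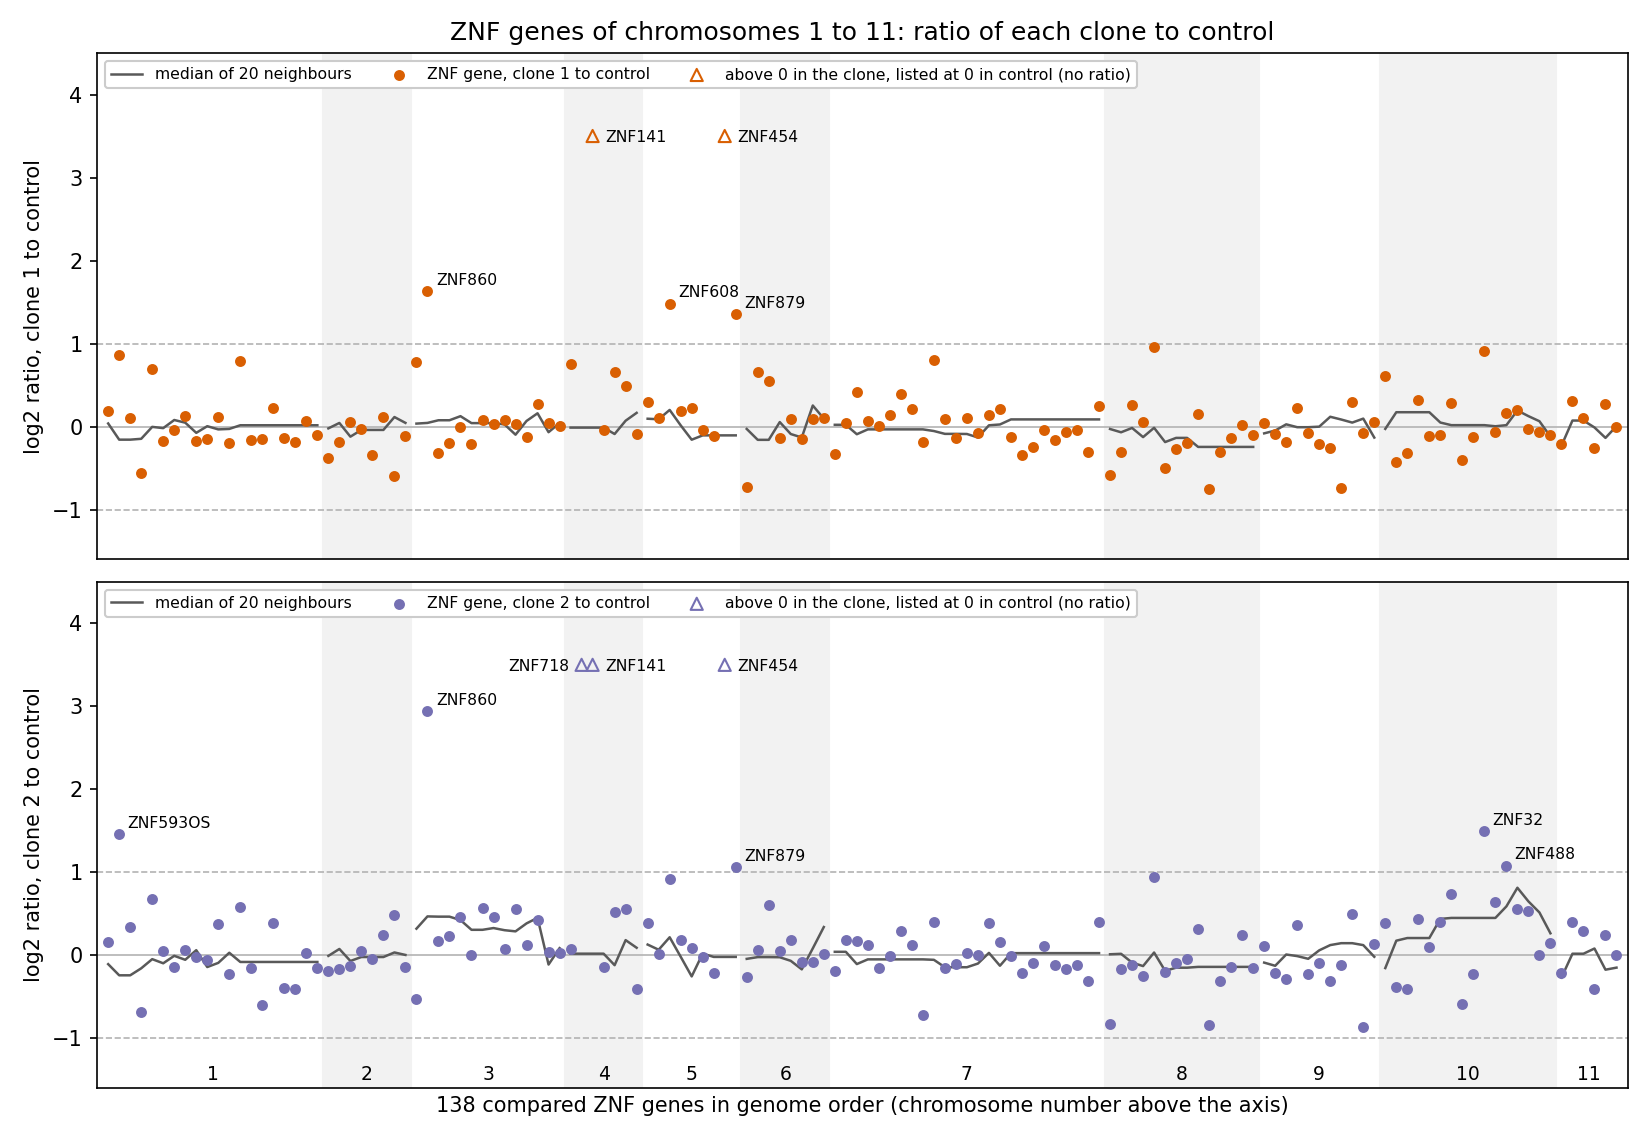
Log2 ratio (pseudocount 1) of clone 1 to control (upper panel) and of clone 2 to control (lower panel) for the 138 compared ZNF genes in genome order, with chromosome numbers along the bottom. Open triangles stand at a fixed height for genes above 0 in the clone and listed at 0 in control, and the grey line is the median ratio of the 20 nearest compared genes without a ZNF symbol. Most points lie between the dashed 2-fold lines, none lies below the lower one, and the line rises in clone 2 on chromosomes 3 and 10.

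A few of the genes had no count at all in control. Of the 167 genes, 5 were listed at 0 in control and had at least 10 counts in a clone (ZNF141, ZNF354C, ZNF385B, ZNF454 and ZNF718). Over all 58336 rows 42 met the same rule, or 0.072%. By clone, 3 of the 167 met it in clone 1 (0.048% of all rows) and 5 in clone 2 (0.0651% of all rows). In the opposite direction, 0 of the 167 were listed at 0 in a clone (0.0394% of all rows), or in both (0.0189% of all rows), with at least 10 counts in control. The shares of all rows are not like for like with the members. Of the 58336 rows, 23533 were listed at 0 in every group and 17149 reached the floor, against 11 and 138 of the 167. ZNF354C and ZNF385B lie under the floor of the comparison and were named after their values were seen. Of the 5, ZNF141, ZNF718, ZNF454 and ZNF354C encode KRAB zinc finger proteins with 10 to 12 fingers, and they lie at 2 places, the start of chromosome 4 and a cluster near the end of chromosome 5. ZNF385B has 4 finger motifs, no KRAB motif and lies on chromosome 2.

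At the start of chromosome 4, ZNF141 (chr4:337814-384868, plus strand) had 48.3 counts in clone 1 and 40.4 in clone 2 and was listed at 0 in control. ZNF718 (chr4:124501-202303, plus strand) had 51.8 counts in clone 2 and was listed at 0 in clone 1 and in control. The pair thus parted, ZNF141 being seen in both clones and ZNF718 in clone 2 alone. ZNF876P, a transcribed pseudogene that lies between them and is not a member, had 10.9 counts in clone 1 and 20.8 in clone 2 and was listed at 0 in control. The genes on either side were transcribed in every group. ZNF595 had 24.7 counts in clone 1, 15.0 in clone 2 and 14.2 in control. ZNF721, whose coding sequence holds 23 finger motifs, had 308 counts in clone 1, 288 in clone 2 and 318 in control, and PIGG, a gene of GPI anchor synthesis next to it, had 415, 401 and 421. ZNF732, between ZNF718 and ZNF141, was listed at 0 in every group. Of the 20 rows of this stretch, 15 were listed at 0 in control, and 9 of those 15 were above 0 in a clone and 4 in both. Those rows include ZNF141 and ZNF718, for which the stretch was chosen, and rows within their spans, some with under 1 count. The numbers are thus a description only, and no share over all rows was taken. The 20 nearest compared genes without a ZNF symbol had median ratios of -0.01 in clone 1 and 0.02 in clone 2.

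On chromosome 5 a run of KRAB genes divides in the middle. ZNF354A had 89.6 counts in clone 1, 91.1 in clone 2 and 92.6 in control, and ZNF354B had 117, 110.1 and 127 counts. Beyond them on the same strand as ZNF354B, ZNF454 (chr5:178941191-178966433) had 34.8 counts in clone 1 and 15.5 in clone 2 and was listed at 0 in control. ZNF879 (chr5:179023804-179035064) had 42.4 counts in clone 1, 34.3 in clone 2 and 15.9 in control, a ratio of 2.56-fold in clone 1 and 2.09-fold in clone 2. ZNF354C (chr5:179060373-179083977), known as a repressor, had 5.95 counts in clone 1 and 14.0 in clone 2 and was listed at 0 in control. So the first 2 genes of the cluster had nearly equal counts in the 3 groups, and the last 3 had more counts in each clone than in control. ZFP2, a zinc finger gene between ZNF354B and ZNF454, had 17.9 counts in clone 1, 17.7 in clone 2 and 14.3 in control. The divergent transcript ZNF454-DT had 2.92 counts in clone 1 and 0.996 in clone 2 and was listed at 0 in control, and the glutamate receptor gene GRM6, between ZNF454 and ZNF879, was listed at 0 in all groups. Over the 17 rows of this stretch, 12 were listed at 0 in control, and 6 of those were above 0 in a clone and 4 in both. Those rows include ZNF454 and ZNF354C, for which the stretch was chosen, so this too is a description only.

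**Figure D2:**
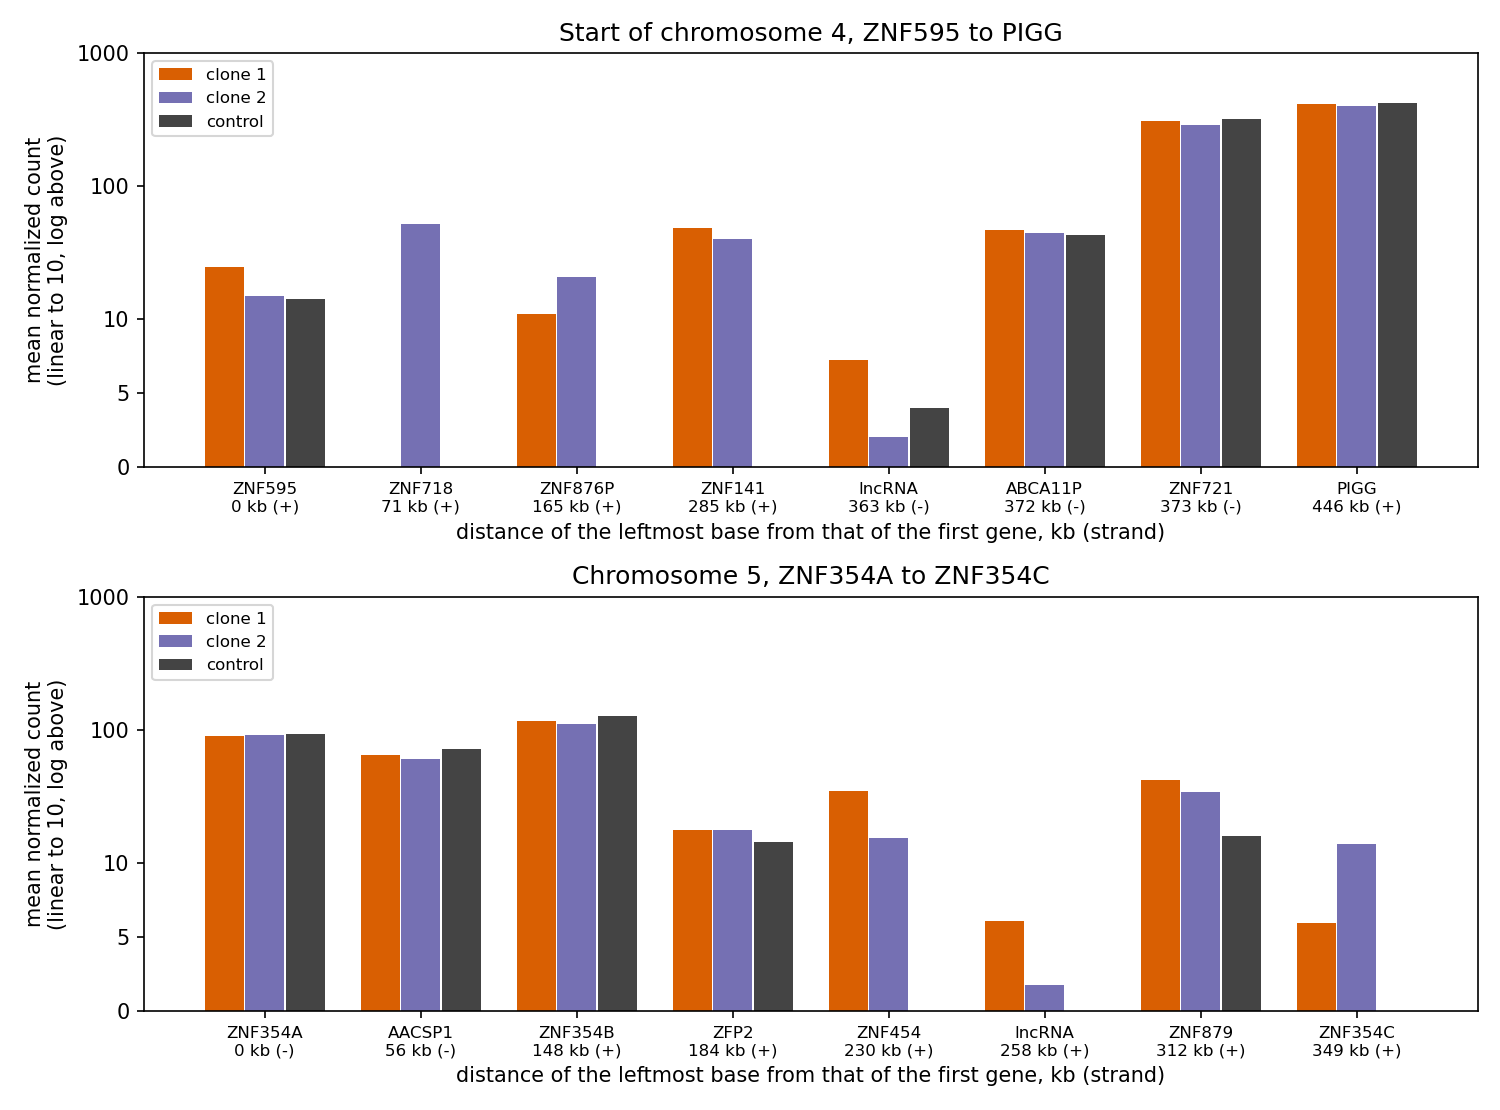
Mean normalized counts (axis linear to 10 and log above) of the genes with at least 5 counts in some group at the start of chromosome 4 and in the cluster of chromosome 5, in order of their start, for clone 1, clone 2 and control. The bars of ZNF141, ZNF876P, ZNF454 and ZNF354C are present in both clones and missing in control, while ZNF721 and PIGG on one side and ZNF354A and ZNF354B on the other have bars of like height in all groups.

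ZNF860, on chromosome 3 (chr3:31981750-31991723, plus strand), is a KRAB gene with 12 finger motifs. It had 47.6 counts in clone 1, 119.6 in clone 2 and 14.7 in control, a ratio of 3.11-fold in clone 1 and 7.70-fold in clone 2. It lies within the span of OSBPL10, an oxysterol-binding protein gene of the opposite strand with 175 counts in clone 1, 271 in clone 2 and 118 in control. The strand setting of the counting is not given in the sources used here, so reads of the pair may be mixed, and the part of OSBPL10 in the values of ZNF860 was not tested. The 20 nearest genes had a median log2 ratio of 0.47 in clone 2 and 0.04 in clone 1.

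The other genes past 2-fold differed more in one clone. ZNF608 (chr5:124636913-124748807, minus strand), with a single finger motif, had 156 counts in clone 1, 105 in clone 2 and 55.2 in control. That is 2.79-fold in clone 1 and 1.89-fold in clone 2, and the gene had the highest counts in control of those past 2-fold. ZNF32, with 6 finger motifs and no KRAB motif, had 57.9 counts in clone 1, 87.1 in clone 2 and 30.2 in control, and ZNF488, whose mouse counterpart promotes oligodendrocyte differentiation, had 42.0, 80.5 and 37.5. Both lie on chromosome 10 where the neighbours were also higher in clone 2, with median log2 ratios of 0.45 around ZNF32 and 0.59 around ZNF488. ZNF32 was 2.82-fold above control in clone 2 and 1.88-fold in clone 1, and ZNF488 was 2.12-fold above it in clone 2 and 1.12-fold in clone 1. With the neighbours' median taken off, the log2 ratio of ZNF32 in clone 2 was 1.04 and that of ZNF488 was 0.49. ZNF593OS had 17.3 counts in clone 1, 26.9 in clone 2 and 9.12 in control. It overlaps ZNF593 on the opposite strand, a gene whose yeast counterpart acts in ribosome biogenesis, with 47.4, 55.8 and 43.9 counts, so the pair cannot be told apart with certainty. ZNF385B had 10.9 counts in clone 1 and 19.1 in clone 2 and was listed at 0 in control.

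**Figure D3:**
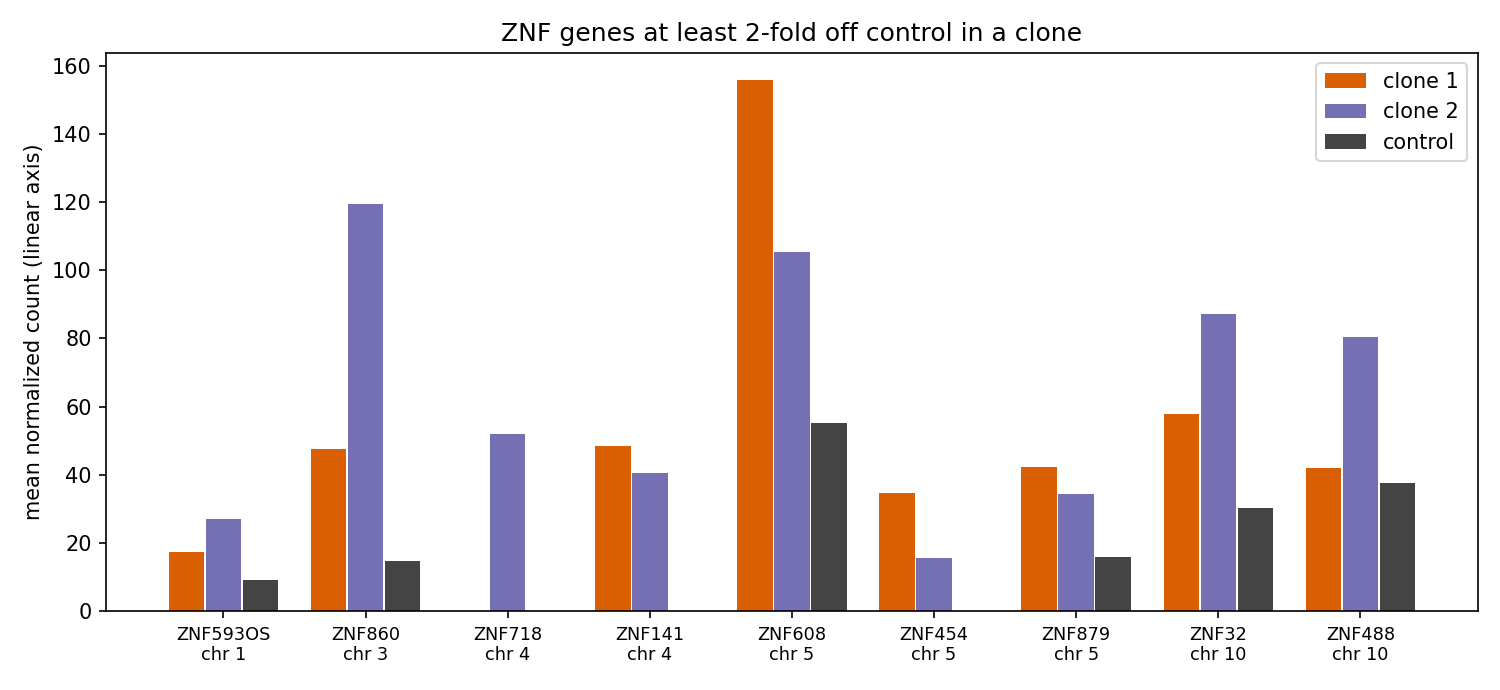
Mean normalized counts in clone 1, clone 2 and control of the 9 compared ZNF genes at least 2-fold above control in a clone. Control has no bar for ZNF141, ZNF718 and ZNF454, and ZNF718 has a bar in clone 2 only.

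Of the genes that were higher in both clones but inside the 2-fold line, ZNF684, ZNF695 and ZNF92 had more counts than any past it. ZNF572 had 38.5 counts in clone 1, 38.4 in clone 2 and 19.4 in control, the nearest to the line in both clones. ZNF684 had 175 counts in clone 1, 174 in clone 2 and 108 in control, and ZNF695 had 213, 184 and 122. ZNF695 overlaps the readthrough gene ZNF670-ZNF695 on the same strand, which had 59.3, 59.8 and 66.7 counts. ZNF92 had the highest level per kb of all the compared ZNF genes, with 320.0 per kb in clone 1, 242 in clone 2 and 184 in control. It lies at the end of an 11-gene cluster on chromosome 7, and the other 6 compared genes of that cluster stayed within 1.5-fold of control except ZNF117. ZNF117, which shares its locus with the endogenous retroviral gene ERV3-1 on the same strand, had 23.9 counts in clone 1, 16.4 in clone 2 and 27.5 in control. ERV3-1 had 30.1, 24.4 and 46.7 counts.

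On the lower side ZNF34 stood out, a KRAB gene of chromosome 8 with 12 finger motifs (chr8:144772224-144787345, minus strand). It had 139.8 counts in clone 1, 132 in clone 2 and 237 in control, or 0.592-fold and 0.560-fold. The 5 other genes of its cluster, ZNF251, ZNF517, ZNF7, ZNF250 and ZNF16, had log2 ratios between -0.30 and 0.32. Around it, the genes without a ZNF symbol had a median of -0.25 in clone 1 and of -0.14 in clone 2. The next lowest by the mean of both clones were low genes. ZNF596 had 18.4 counts in clone 1, 15.4 in clone 2 and 28.2 in control, ZNF362 had 23.6, 21.5 and 35.2, and ZNF322 had 13.9, 19.7 and 23.8. ZNF239, ZNF618, ZNF483, ZNF248 and ZNF670 complete the 10 lowest with ZNF117. Of these, ZNF618 differed between the clones, with 47.4 counts in clone 1, 26.9 in clone 2 and 49.8 in control, and so did ZNF483, with 29.3, 45.6 and 49.5.

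With no replicate values, the spread of clone 2 against clone 1 over genes of like count served as a yardstick. Since true differences between the clones are part of it, it is no replicate error. Its central 95% ran from -1.01 to 1.05 for genes of 10 to 50 counts, from -0.50 to 0.63 for 50 to 200 and from -0.35 to 0.53 for 200 to 1000 on the log2 scale. In clone 1, 11 of the 138 ZNF genes lay above it (background 4.36%) and 2 below it (background 4.25%). In clone 2, 12 lay above it (background 7.12%) and 2 below it (background 6.78%). ZNF141, ZNF32, ZNF454, ZNF608, ZNF684, ZNF860 and ZNF879 lay above it in both clones (5.07% of the compared ZNF genes and 3.15% of all compared genes), and ZNF34 alone lay below it in both (0.725% and 2.52%). The floor favours the higher side here too. ZNF141 and ZNF454 passed it through the clones alone, and so did ZNF718 and ZNF593OS, which count in clone 2. The yardstick was not repeated with a floor on control.

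Of the 138 genes, 3 had at least 2-fold more counts in clone 2 than in clone 1 (background 1.05%) and 2 had at least 2-fold fewer (background 0.933%). ZNF718 and ZNF860 are 2 of the 3. The third was ZNF804A, a gene at a locus associated with schizophrenia, which had 482 counts in clone 2, 227 in clone 1 and 342 in control, so control lay between the clones. On the lower side were ZNF454, with 15.5 counts in clone 2 and 34.8 in clone 1, and ZNF385D, with 18.3 counts in clone 2, 46.9 in clone 1 and 26.8 in control.

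The position on the chromosome went with the value in clone 2. On chromosome 3 clone 2 lay above clone 1 at 13 of the 14 compared ZNF genes, and their median log2 ratio to control was 0.03 in clone 1 and 0.21 in clone 2. For the 962 other compared genes of chromosome 3 the medians were also 0.03 and 0.21. On chromosome 10 clone 2 lay above clone 1 at 12 of 16, with medians of -0.06 in clone 1 and 0.40 in clone 2, against 0.01 and 0.31 for the 619 other genes. ZNF22, ZNF503 and ZNF365 illustrate it. ZNF22 had 104 counts in clone 1, 171 in clone 2 and 109 in control, ZNF503 had 154, 228 and 157, and ZNF365 had 25.1, 32.5 and 21.7. On chromosome 3 ZNF621 had 359.8 counts in clone 1, 497 in clone 2 and 360.1 in control, ZNF197 had 292, 393 and 286, and ZNF589 had 181, 263 and 178. At all 6, chosen as examples, clone 2 lay above both clone 1 and control, and their neighbours' medians in clone 2 were between 0.29 and 0.81. Not every gene followed its neighbours. In clone 2 the log2 ratio of ZNF239 was -0.59 beside a neighbours' median of 0.45, and that of ZNF485 -0.23 beside 0.45. ZNF518A had 0.01 beside 0.52, and on chromosome 3 ZNF385D had -0.53 beside 0.32. Of the 138 genes, 24 had neighbours with a median of at least 0.25 in clone 2, against 1 in clone 1. Copy number was not measured, and its part in these values was not tested. Set against their own 20 neighbours, 72 of the 138 lay above the neighbours' median in clone 1 and 71 in clone 2.

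**Figure D4:**
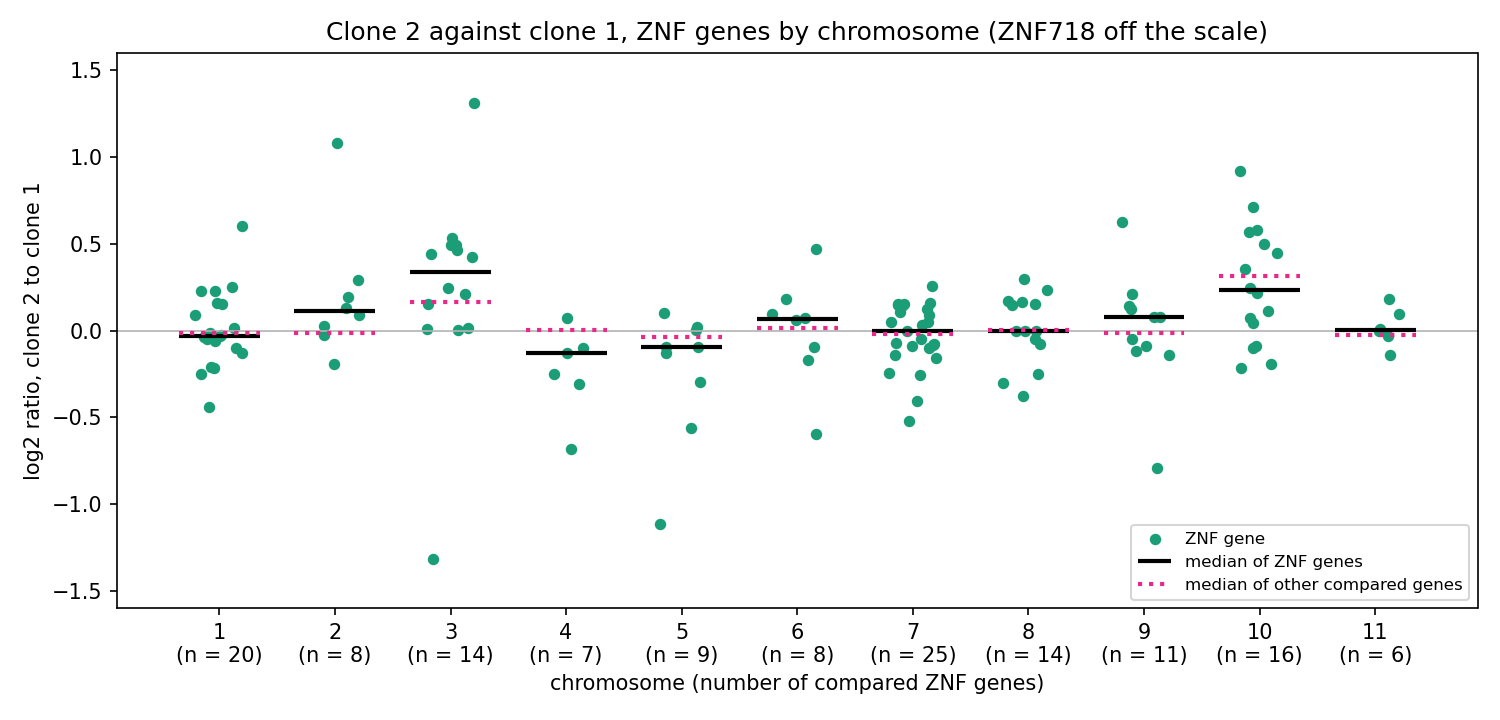
Log2 ratio of clone 2 to clone 1 for the compared ZNF genes by chromosome (points), with the median of the ZNF genes (black) and of the other compared genes of the chromosome (dotted). ZNF718, listed at 0 in clone 1, is off the scale, and on chromosomes 3 and 10 both medians lie above 0, with 13 of 14 and 12 of 16 points above it.

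By structure, 79 of the 165 genes with a coding sequence held a KRAB A box-like motif and 86 did not. The 4 genes at least 2-fold higher in both clones were KRAB genes, among 65 compared, and 0 of 72 without the motif were (background over all compared genes 1.66%). Since ZNF141 and ZNF454 passed the floor through the clones alone, this says little: with at least 10 counts in control it was 2 of 62 with the motif and 0 of 71 without it. The medians of the groups were close, however, at -0.03 in clone 1 and 0.10 in clone 2 with the motif and 0.05 and 0.02 without it. The number of finger motifs ran from 0 to 36 with a median of 9, and the same 4 genes had 10 or more. Of the 69 genes in the 11 clusters of at least 4 members, 57 were compared, with 3 at least 2-fold higher in clone 1 and 5 in clone 2, beside 2 and 3 of 81 outside clusters (background 2.27% in clone 1 and 3.34% in clone 2). With at least 10 counts in control these became 1 and 2 of 54 in clusters, and 2 and 2 of 80 outside. By annotated start base, 53 compared genes began with A with a median of 0.00 in clone 1 and of 0.03 in clone 2, while 57 began with C, G or T, with medians of 0.03 and 0.07. At least 2-fold higher were 0 in clone 1 and 2 in clone 2 of those with A, and 5 in clone 1 and 5 in clone 2 of the others, where the background over all compared genes was 2.27% in clone 1 and 3.34% in clone 2. With at least 10 counts in control it was 0 of 51 in each clone for A, and 3 of 55 in each clone for the others. For none of these splits was a share over all genes taken with the floor on control. The annotated base is not a start mapped in these cells, and 28 compared genes had no promoter entry.

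The promoters were searched for 4 motifs, and their shares are given as a description. The entry was the one nearest the GENCODE start for ZNF genes and the one of lowest coordinate for the others. The shares of ZNF genes and others are thus not like for like. CCGGAAG, read on both strands, was in 34.5% of the 110 compared ZNF genes' promoters and in 18.5% of those of 9843 compared protein-coding genes without a ZNF symbol. Over all 35116 promoters the share was 10.3%. Of the genes past 2-fold, ZNF488 had no promoter entry and was not searched, and of the others ZNF141 alone held it. ACTACAA, which is in the binding sequence of ZNF143, was in 7.27% of the compared ZNF promoters and 3.73% of the others, and among the genes past 2-fold in that of ZNF32. The TATA box letters TATAAA were in 6.36% and 5.93%, and the E-box CACGTG in 8.18% and 10.1%. ZNF718 and ZNF608 hold TATAAA in their entries, though the entry of ZNF718 starts away from its GENCODE start.

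Several ZNF genes with well-studied roles, picked for those roles after their values were seen, lay within 1.5-fold of control in each clone. ZNF143, an activator of small nuclear RNA genes, had 169 counts in clone 1, 153 in clone 2 and 202 in control. ZNF445, which helps to maintain genomic imprints, had 448, 519 and 519, and ZNF644, a partner of the H3K9 methyltransferases EHMT1 and EHMT2, had 408, 391 and 374. ZNF451, a SUMO ligase, had 435 counts in clone 1, 387 in clone 2 and 409 in control. ZNF746 (PARIS), a target of the ubiquitin ligase parkin, had 168 in clone 1, 168 in clone 2 and 208 in control. Per kb, the highest levels in control after ZNF92 were those of ZNF622, a factor of large ribosomal subunit maturation, with 209 in clone 1, 224 in clone 2 and 171 in control, ZNF367 with 125, 117 and 143, and ZNF34 with 62.9, 59.5 and 107. The median level per kb of the compared ZNF genes was 29.1 in clone 1, 29.7 in clone 2 and 27.1 in control, beside 30.0, 30.1 and 30.0 over all compared genes.

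**Figure D5:**
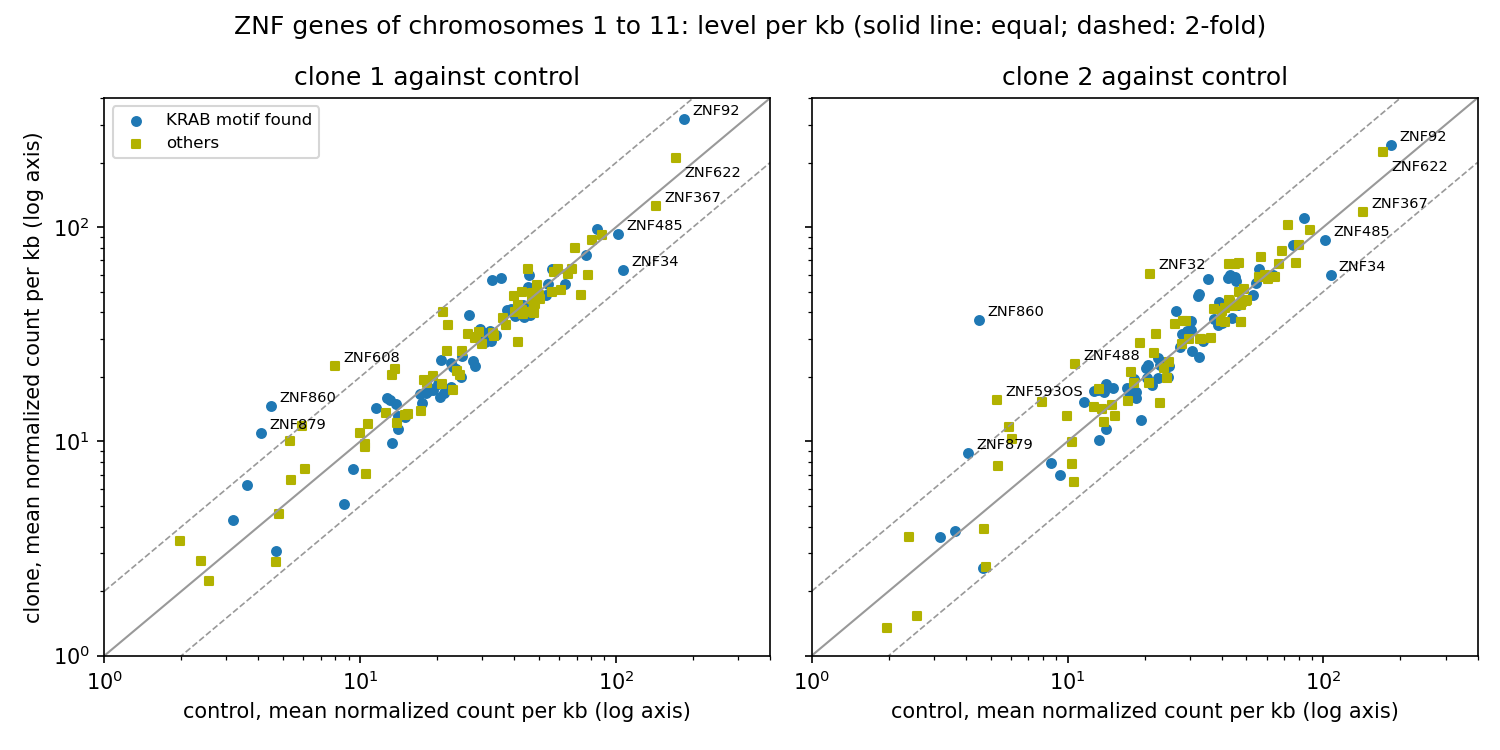
Level per kb in clone 1 (left) and clone 2 (right) against control for the compared ZNF genes above 0 in both groups, on log axes without pseudocount, with genes holding a KRAB motif as circles and the others as squares. The solid line marks equal levels and the dashed lines 2-fold, and ZNF92 and ZNF622 are the highest points and lie above the solid line.

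The proteins through which KRAB zinc finger proteins act were transcribed in every group. All 22 genes of a list of TRIM28 partners and heterochromatin factors were compared and 0 were at least 2-fold off in a clone. The background over all compared genes was 3.59% in clone 1 and 5.23% in clone 2, so 0 of 22 is near it. The median log2 ratios of the 22 were -0.09 in clone 1 and -0.13 in clone 2. TRIM28 had 619 counts in clone 1, 615 in clone 2 and 845 in control, log2 ratios of -0.45 and -0.46. MORC2, an ATPase of the HUSH silencing pathway, had 93.4, 91.4 and 127 counts, RESF1, a partner of SETDB1, had 227, 206 and 258, and CBX3, an HP1 protein, had 847, 807 and 964. SETDB1 itself had 277 counts in clone 1, 290 in clone 2 and 314 in control. TRIM28, MORC2, RESF1 and CBX3 have the largest mean of both clones' log2 ratios in the list by size, and each lay below control in both clones, within 1.5-fold.

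Among ZNF genes elsewhere, chromosome 19 held 228 compared genes, with medians of 0.09 in clone 1 and 0.11 in clone 2. At least 2-fold higher there were 15 in clone 1 (6.58%, against 2.27% of all compared genes), 18 in clone 2 (7.89% against 3.34%) and 12 in both (background 1.66%). On the lower side the counts were 4 for clone 1 (background 1.32%) and 2 for clone 2 (background 1.9%). Of the 87 compared ZNF genes of the remaining chromosomes, 1 was at least 2-fold higher in clone 1 and 1 in clone 2 (1.15% in each, against the same 2.27% and 3.34%). On the lower side these counts were 2 and 0, beside the same backgrounds of 1.32% and 1.9%. The difference between these groups of genes was not tested.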

How the data were processed

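PRO-seq was made from 9 libraries of MEL624 cells in 3 groups of 3. The design text gives 1000000 cells and 40000 Drosophila spike-in cells per library, paired 42-nt reads and, on average, 50000000 that could be mapped. Builds hg38, GRCh38.p12 and dm3 and the tools DESeq2, featureCounts, Bowtie 1.2.2 and cutadapt 1.14 are listed, without roles, in the submitters' processing notes. The strand setting, scaling and counted feature were not given in the sources used here. Per the file header, the deposited signal is the authors' mean of normalized counts per group divided by gene length in kb, rounded to 0.01. The header has 6 names for 5 cells, and the missing cell was taken to be the symbol. The length cell is under 0.5 of the gene span for 151 of the 167 genes. It is within 5% of the merged exon length for 110 and equal to it for 41, so introns may not be counted.

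Symbols and positions came from GENCODE release 44, which held 57754 of 58336 identifiers. Values were multiplied by length, 1 was added for log2 ratios, and genes with a mean of at least 10 were compared. Summed normalized counts were 3759168 in clone 1, 3823178 in clone 2 and 3760730 in control, and are no depth. Finger motifs (Cys, 2 to 4 residues, Cys, 12 residues, His, 3 to 5 residues, His) and KRAB motifs were counted in translated GENCODE coding sequences of 165 genes in place of the planned RefSeq proteins, and promoters came from RefSeq. Of the promoters, 103 start within 100 bases of the GENCODE start and 19 lie more than 1000 bases from it. A cluster is a run of at least 4 members with starts within 1 Mb. Named genes were the 10 highest and 10 lowest by the mean of both log2 ratios, all those past 2-fold, the 5 highest and 5 lowest of clone 2 to clone 1, the 10 highest levels per kb in control, the extremes of each cluster, 4 partners and PCIF1. Not all are reported, and others are said to be chosen after their values were seen or serve as neighbours. Members and lists were chosen with earlier results of these data known. Python 3.11.15, numpy 2.4.6, pandas 2.3.3 and matplotlib 3.10.9 were used. The 2-fold criterion was tried on simulated counts with Poisson noise alone. These held no variation between libraries or clones, so the trial gives no measure of error for these data. Alternatives were other pseudocounts, floors, scalings, the scale per kb, subtraction of neighbours, a control floor and leaving out genes listed at 0.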

Additional observations from a re-analysis of the deposited data

How the results depend on the processing

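Of 110 values recomputed under 11 alternatives, 89 stayed within 1.5 times the reported count or within 0.1 of the reported median. The median of clone 1, reported as -0.0026, was 0.0125 after subtraction of the neighbours' median and 0.0132 without overlapping genes, and no other median changed sign. The count of ZNF genes at least 2-fold above control in clone 1, reported as 5, was 2 with a floor of 50, 2 on the scale per kb, 3 with at least 10 counts in control and 3 without genes listed at 0 in a group. In clone 2, reported as 8, it was 13 with no filter, 3 with a floor of 50, 4 per kb, 4 with the control floor and 5 without genes listed at 0. In both clones, reported as 4, it was 1, 1, 2 and 2 under those last 4 alternatives. At least 2-fold below control, 1 gene in clone 1 (ZNF804B, listed at 0 there) appeared with no filter and 1 in clone 2 (ZNF239) after subtraction of the neighbours' median, where 0 were reported. Between the clones, 6 genes were past 2-fold on the higher side in clone 2 with no filter (3 reported), and on the lower side there was 1 with a pseudocount of 5, 0 with a floor of 50, 0 per kb, 1 with the control floor and 1 without genes listed at 0 (2 reported). The control floor and leaving out genes listed at 0 were added after the data were seen.

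No paired analysis was possible because each group has 1 deposited mean, and leaving out replicates was not run for the same reason. The low counts of ZNF141, ZNF718, ZNF454, ZNF879 and ZNF593OS, all with a mean between 10 and 50, limit them, since the spread between the clones was widest in that range.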

Other observations

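Other zinc finger families of chromosomes 1 to 11 were taken by the start of their symbols. None of the 8 compared ZSCAN, 6 ZKSCAN and 9 ZFP genes was at least 2-fold from control in a clone, where the background over all compared genes was 3.59% in clone 1 and 5.23% in clone 2. Of 27 compared ZBTB genes, most of whose proteins pair zinc fingers with a BTB domain, 1 was at least 2-fold higher in clone 2 (3.70%, background 3.34%). This was ZBTB8B, with 428 counts in clone 1, 721 in clone 2 and 233 in control. ZBTB8OS is among the 27 by its symbol alone. ZBTB12 was the 1 at least 2-fold lower in clone 1 (background 1.32%), with 6.71 counts in clone 1, 13.9 in clone 2 and 16.2 in control.

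Of 7 compared PRDM genes, which pair zinc fingers with a PR/SET domain, 2 were at least 2-fold higher in both clones, where the background over all compared genes was 1.66%, and both lie on chromosome 5. PRDM9, the methyltransferase that places meiotic recombination hotspots and is known from germ cells, had 64.9 counts in clone 1, 67.6 in clone 2 and 18.8 in control. PRDM6 had 30.2 counts in clone 1, 14.7 in clone 2 and 2.99 in control, and it passed the floor through the clones alone. The median log2 ratio of the 7 was 0.38 in clone 1 and 0.36 in clone 2. These genes were named after their values were seen.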
